A study of Homo sapiens and Mus musculus with 21 samples.

Results

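The genes described here are 36 genes of mitosis and of the G2/M transition, the step at which a cell that has copied its DNA enters division. They were chosen by symbol: a gene was taken when its symbol in the human count tables was that of a listed member, and its ortholog was taken by the same name in the mouse table. All 36 were found, of 60674 genes listed in the human tables and 41214 in the mouse table. RNA was sequenced from mesothelioma cells, tumour cells of the lining of the lung, to ask what loss of BAP1 and inhibition of EZH2 change. BAP1 is a tumour suppressor that removes ubiquitin from histones, and EZH2 is the histone methyltransferase that GSK126 inhibits.

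The 21 libraries fall into 10 groups. In a knockdown table, the human lines MSTO-211H and H2810 carried a BAP1 shRNA (shBAP1) or a random shRNA, with 2 libraries per line and hairpin. In a drug table, H2731, labelled Bap1 mutated, and H2810, labelled Bap1 wildtype, received GSK126 or the solvent DMSO, with 2 libraries per line and treatment. The third table holds mouse mesothelioma cells labelled BNC (Bap1-/-;Nf2-/-;Cdkn2ab-/-, 3 libraries) and NC (Nf2-/-;Cdkn2ab-/-, 2 libraries), so that loss of Nf2 and Cdkn2ab is shared by both mouse groups. The labels give no BAP1 status for MSTO-211H, no dose or duration for GSK126, no hairpin sequence and no age or strain of the mice, and each knockdown carries the same hairpin name. Nothing in the labels says that libraries of a group came from separate cultures or animals, so p-values measure the spread between these libraries, which may be technical.

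Cells enter mitosis when CDK1 bound to a B-type cyclin becomes active, and they leave it when the anaphase-promoting complex (APC/C) marks cyclin B and securin for destruction. In between, the Aurora and Polo-like kinases, kinetochore proteins and kinesins build the spindle and attach chromosomes to it, while the spindle assembly checkpoint holds the APC/C in check. Most genes of this programme are transcribed late in the cell cycle, under B-MYB, FOXM1 and the MuvB complex, and their RNA is widely used as a readout of proliferation in tumours.

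Total counts per library were 13693927 to 22916482 for the mouse cells, 17927837 to 22927239 for the drug experiment and 19707304 to 23217215 for the knockdown experiment. Levels are given as CPM, counts scaled to a common library total, with library sizes adjusted by the trimmed mean of M-values (TMM), and differences as log2 fold changes ± standard error (SE) from edgeR's quasi-likelihood test. A gene was called at a Benjamini-Hochberg adjusted p below 0.05 over all genes tested, and 35 of the 36 genes passed the filter on low counts in the human tables and 36 in the mouse table. BAP1 had 15.4 and 17.7 CPM in shBAP1 MSTO-211H libraries, against 100.1 and 103 CPM with random shRNA, and 13.4 and 20.3 CPM in shBAP1 H2810 libraries, against 115 and 117 CPM with random shRNA. In the mouse cells Bap1 RNA was counted at 30.5, 33.3 and 44.1 CPM in BNC libraries and at 60.2 and 62.0 CPM in NC libraries (-0.76 ± 0.23, adjusted p = 0.62, not called). Mesothelial markers were uneven: KRT19 was at or below 0.389 CPM in H2810 and MSTO-211H, MSLN was 1.33 to 2.40 CPM in H2810, and CALB2 was 0 in all mouse libraries. Others were abundant, since the 11 mesothelial markers listed summed to group means of 1658 to 3351 CPM in H2810. The sums were 9222 and 10953 CPM in MSTO-211H and 6205 and 7640 CPM in H2731. BNC replicate 6 stood apart, with MSLN at 0.351 CPM against 488 to 879.9 CPM in the other 4 mouse libraries. Its 11 mesothelial markers summed to 133 CPM, against 863 to 2341 CPM in the others. WT1 of that list went the other way, at 130 CPM against 8.54 to 109 CPM. Summed fibroblast markers were 12262 CPM in BNC replicate 6, against 1301 and 1558 CPM in the other BNC libraries and 4599 and 6604 CPM in NC libraries.

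Summed over the 36 genes, the 4 knockdown groups crossed over. The sum was 3225 and 3302 CPM in shBAP1 MSTO-211H libraries, against 3804 and 3900 CPM with random shRNA. In H2810 it was 3967 and 3669 CPM with shBAP1, against 3380.0 and 3142 CPM with random shRNA. The sum was thus lower with shBAP1 in MSTO-211H and higher in H2810, with no overlap between hairpins in either line. With GSK126 it was 6582 and 6831 CPM in H2731, against 6625 and 6728 CPM with DMSO, and 3266 CPM in both H2810 libraries, against 3529 and 3596 CPM with DMSO. Mouse sums were 7772, 7328 and 8321 CPM in BNC libraries, against 7929 and 6849 CPM in NC libraries, which overlap. TOP2A, MKI67 and ANLN together made up 20.02% to 32.8% of these sums, so the single genes below are not read from the sum.

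**Figure D1:**
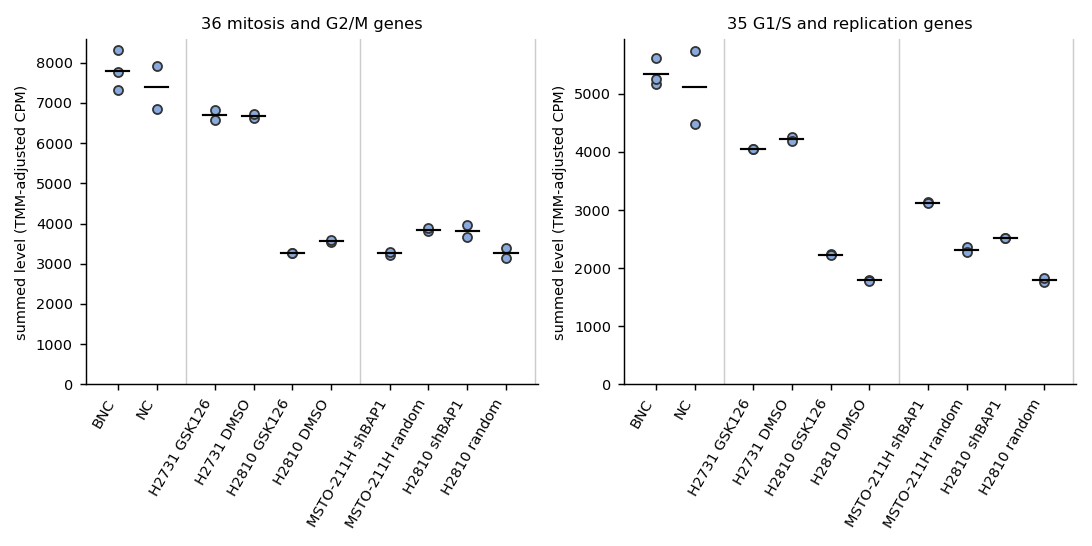
Summed level in CPM of the 36 mitosis and G2/M genes (left panel) and of 35 G1/S and replication genes (right panel) by group; points are libraries and lines group means. The mitotic sum was 3225 and 3302 CPM with shBAP1 in MSTO-211H, below the 3804 and 3900 CPM with random shRNA, while in H2810 it was higher with shBAP1.

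Compared per length, as reads per kilobase of exon at a fixed depth (RPKM, mean ± SD over the libraries of a group), CCNB1, CDC20 and TOP2A were among the 5 highest in each human control group. The 4 highest were CCNB1, CDC20, TOP2A and TPX2 in MSTO-211H with random shRNA (90.9 ± 3.81, 89.0 ± 0.348, 79.3 ± 0.928 and 73.3 ± 2.11 RPKM). In H2731 under DMSO they were CCNB1, CDC20, TOP2A and ANLN (155 ± 3.32, 132 ± 5.97, 125 ± 1.97 and 119.7 ± 3.84 RPKM). H2810 under DMSO was led by TOP2A at 78.5 ± 2.45 RPKM, followed by TPX2 at 69.0 ± 1.35 RPKM. At the low end, CDC25C was at 2.91 to 4.80 RPKM in all human groups, PRC1 was at 0.566 to 1.04 RPKM and NUSAP1 at or below 0.0864 RPKM. In NC mouse cells the same 2 genes were well counted, Prc1 at 28.2 ± 1.07 RPKM and Nusap1 at 20.5 ± 5.22 RPKM, and Pttg1 and Cdc25c were the lowest, at 6.48 ± 1.84 and 6.38 ± 0.402 RPKM.

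The promoters of these genes share short sequences that the choice of members did not use. Many G2/M promoters are known to carry a cell cycle homology region, TTTGAA, near the start of transcription, often with CCAAT boxes upstream. In RefSeq windows of 300 bases (250 before to 50 after the start, GRCh38.p14, either strand), 31 of the 36 genes had an entry, with 38 windows. TTTGAA, searched together with its reverse complement TTCAAA, was present in 26 of 38 windows (68.4%), against 15.2% of all 35116 windows and 1 of 39 windows (2.56%) of the G1/S and replication genes. Other mitotic kinesin, spindle and cytokinesis genes held it in 13 of 20 windows (65.0%) and other kinetochore and centromere genes in 13 of 36 (36.1%). CCAAT, likewise searched also as ATTGG, was found in 28 of 38 windows (73.7%), against 34.6% of all windows, 75.0% in the other kinesin list, 66.7% in the other kinetochore list and 64.1% of G1/S windows. The E2F-type motif TTCCCGC, or on the other strand GCGGGAA, was in 4 of 38 windows (10.5%), against 6.55% of all windows and 41.0% of G1/S windows. A variant, TTCGAA, its own reverse complement, was in 2 of 38 windows (5.26%), against 1.45% of all.

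Below are the 150 bases just before the start of 5 genes that the results turn on, from RefSeq (GRCh38.p14), 5′ to 3′ on the strand of the gene, with TTTGAA and CCAAT in capitals on either strand. CCNB2 (ENSG00000157456, chr15:59104996-59105145, plus strand), CDC20 (ENSG00000117399, chr1:43358831-43358980, plus) and PLK1 (ENSG00000166851, chr16:23678739-23678888, plus) are shown because they moved in opposite directions with shBAP1 and GSK126 in H2810. CCNA2 (ENSG00000145386, chr4:121823884-121824033, minus) and ANLN (ENSG00000011426, chr7:36389712-36389861, plus) are shown because each moved the same way in both knockdown lines.
CCNB2: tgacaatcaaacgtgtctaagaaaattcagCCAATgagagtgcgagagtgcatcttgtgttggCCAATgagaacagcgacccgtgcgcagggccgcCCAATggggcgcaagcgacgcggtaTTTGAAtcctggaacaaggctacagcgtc
CDC20: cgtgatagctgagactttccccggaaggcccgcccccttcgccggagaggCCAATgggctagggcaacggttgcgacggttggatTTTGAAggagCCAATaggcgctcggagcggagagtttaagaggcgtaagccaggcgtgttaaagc
PLK1: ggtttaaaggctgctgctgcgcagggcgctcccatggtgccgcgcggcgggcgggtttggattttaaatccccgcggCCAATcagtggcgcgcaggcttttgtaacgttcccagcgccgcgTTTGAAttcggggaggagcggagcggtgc
CCNA2: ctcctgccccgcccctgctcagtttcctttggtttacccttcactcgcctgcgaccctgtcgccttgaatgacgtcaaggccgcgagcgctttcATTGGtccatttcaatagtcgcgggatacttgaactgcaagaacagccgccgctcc
ANLN: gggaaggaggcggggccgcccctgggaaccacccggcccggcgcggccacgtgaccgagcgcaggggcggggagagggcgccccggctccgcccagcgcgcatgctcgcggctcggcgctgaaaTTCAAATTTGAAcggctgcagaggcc
TTTGAA began 29 bases before the start in CCNB2, 65 in CDC20 and 29 in PLK1, with 3, 2 and 1 CCAAT boxes. CCNA2 had no TTTGAA and 1 CCAAT box, read as ATTGG, in the stretch shown. Forms of the element other than TTTGAA and TTCGAA were not searched, so the element itself is not shown to be absent. ANLN had TTTGAA on each strand, beginning 26 and 20 bases before the start, and no CCAAT box. In H2810, 14 genes moved in opposite directions with shBAP1 and GSK126, CCNB2, CDC20 and PLK1 among them. Of the others, CCNB1, PTTG1, CENPE, KIF20A and KIF2C had no TTTGAA in the windows searched, and NUF2 held it only after the start. AURKA, TPX2 and BIRC5 had no window. A link between these letters and the direction of change was not tested. A match describes these letters only and does not show binding.

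In H2810, knockdown of BAP1 went with higher RNA of most mitotic genes. Of 35 genes tested, 25 rose and 1 fell (26 called in all), where 22.5% of the 15872 genes tested rose, 23.3% fell and 45.8% were called in all. The median log2 fold change over the 35 genes was 0.36, against -0.03 over all genes tested. The 25 rises ran from 0.16 to 1.18 on the log2 scale with a median of 0.41. RNA of bulk cultures cannot tell fewer cells in mitosis from less RNA per mitotic cell, here or in the comparisons that follow.

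Among the cyclins, CDK1 and its phosphatase, 4 of 5 rose in H2810. CCNB1, the cyclin that activates CDK1 for mitotic entry, had 184 and 179 CPM with shBAP1, against 124 and 134 CPM with random shRNA. Both knockdown libraries were above both controls, a log2 fold change of 0.49 ± 0.055, adjusted p = 3.13e-05. CCNA2 (cyclin A2, which works in S phase and G2), CDC25C (the phosphatase that frees CDK1 of inhibitory phosphate) and CCNB2 (a second B-type cyclin) rose by 0.41, 0.39 and 0.38 on the log2 scale. CDK1 itself had 87.9 and 94.3 CPM with shBAP1, against 78.9 and 86.1 CPM, and did not pass (0.14 ± 0.072, adjusted p = 0.127).

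All 4 mitotic kinases and their partner genes rose. AURKA, the centrosomal Aurora kinase, had 93.5 and 91.7 CPM with shBAP1, against 52.1 and 59.9 CPM with random shRNA. Its 1.66-fold higher level (0.73 ± 0.074, adjusted p = 1.51e-05) was the largest change of this group, and the groups did not overlap. PLK1, the Polo-like kinase of centrosomes, kinetochores and cytokinesis, rose by 0.53, and AURKB, the kinase of the chromosomal passenger complex, by 0.37. The smallest rise was that of TPX2, which activates AURKA on spindle microtubules, at 229 and 217 CPM against 193 and 195 CPM (0.20 ± 0.049, adjusted p = 0.00572). Both partners of AURKB rose too: CDCA8 (borealin) had 64.6 and 65.7 CPM with shBAP1, against 40.1 and 41.9 CPM (0.67 ± 0.055, adjusted p = 3.26e-06). BIRC5 (survivin) had 90.9 and 87.0 CPM, against 57.2 and 64.5 CPM (0.55 ± 0.065, adjusted p = 4.52e-05).

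Of the spindle assembly checkpoint kinases and their relative, BUB1 and BUB1B rose and TTK did not pass. BUB1 had 103 and 109 CPM with shBAP1, against 74.1 and 77.3 CPM (0.49 ± 0.054, adjusted p = 2.95e-05), and BUB1B rose by 0.36. TTK had 63.6 and 58.9 CPM, against 55.4 and 59.6 CPM, and these overlapped (0.093 ± 0.061, adjusted p = 0.235). All 3 genes of APC/C activity rose. CDC20, the APC/C activator that the checkpoint restrains, had 144 and 139 CPM with shBAP1, against 84.8 and 87.0 CPM with random shRNA. That was 1.65-fold higher (0.72 ± 0.049, adjusted p = 7.99e-07), with every knockdown library above every control. PTTG1 (securin, the separase inhibitor that the APC/C destroys) rose by 0.31, and UBE2C, the E2 enzyme of the APC/C, was at 63.3 and 62.6 CPM against 54.9 and 57.6 CPM (0.16 ± 0.056, adjusted p = 0.035).

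NUF2, a subunit of the NDC80 complex that holds microtubules at the kinetochore, made the largest rise of all 35 genes. It had 29.2 and 31.3 CPM in shBAP1 H2810 libraries, against 12.7 and 14.0 CPM with random shRNA, 2.27-fold higher (1.18 ± 0.073, adjusted p = 4.28e-07). NDC80, its direct partner in the complex, had 33.2 and 35.7 CPM, against 30.2 and 31.9 CPM, and did not pass (0.15 ± 0.065, adjusted p = 0.0857). CENPE (the kinetochore kinesin) and CENPA (the centromeric histone) rose by 0.45 and 0.26. CENPF, a large kinetochore protein, was at 188 and 136 CPM with shBAP1, against 206 and 144 CPM, and the libraries of each group spread widely (-0.11 ± 0.16, adjusted p = 0.602). Among kinesins, KIF20A (of the central spindle) had 139 and 132 CPM, against 102 and 100.02 CPM (0.43 ± 0.050, adjusted p = 4.01e-05). KIF2C (a microtubule depolymerase) and KIF23 (of centralspindlin) rose by 0.37 and 0.20. KIF11, which pushes spindle poles apart, was at 106 and 96.3 CPM against 101 and 95.1 CPM (0.042 ± 0.057, adjusted p = 0.581).

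The spindle and cytokinesis genes split in H2810. ECT2, the exchange factor that switches on RhoA for cytokinesis, had 209 and 203 CPM with shBAP1, against 124 and 124 CPM with random shRNA (0.73 ± 0.048, adjusted p = 7.01e-07). ANLN (anillin, the scaffold of the contractile ring) went the other way, with 158 and 149.7 CPM against 252 and 243 CPM. It was 1.61-fold lower (-0.69 ± 0.054, adjusted p = 2.39e-06), the only fall among the 35 genes. DLGAP5, which stabilizes kinetochore fibres, rose by 0.33, and PRC1, which bundles midzone microtubules, by 0.47, with 3.78 and 4.93 CPM against 3.09 and 3.16 CPM. HMMR, a spindle-associated protein, did not pass at 52.8 and 51.7 CPM against 52.2 and 52.8 CPM (-0.0057 ± 0.055, adjusted p = 0.958). Of the chromosome structure genes, TOP2A, the topoisomerase that untangles sister chromatids, rose (516 and 477 CPM with shBAP1, against 426 and 388 CPM, 0.29 ± 0.058, adjusted p = 0.00189). NCAPG, a condensin subunit, had 60.04 and 60.4 CPM against 54.2 and 56.2 CPM and did not pass (0.13 ± 0.064, adjusted p = 0.132).

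The errors in H2810 rest on a spread shared with the MSTO-211H groups, whose replicates lay closer together, and may be too small. When the 2 H2810 groups alone were fitted, 6280 of 14545 genes were called, against 7277 of 15872. Of the 26 calls in H2810, 23 held in each of 15 alternative analyses, that fit among them. CENPA lost its call without shBAP1 replicate 1 (0.21, adjusted p = 0.0712 by edgeR), UBE2C in 7 alternatives (adjusted p = 0.158 without random-shRNA replicate 1) and PRC1 in 11 (adjusted p = 0.285 without shBAP1 replicate 2). CDK1 (0.25, adjusted p = 0.0315) and NDC80 (0.23, adjusted p = 0.0372) were called higher without random-shRNA replicate 2. Replicates differed most in long genes: MKI67, the proliferation marker Ki-67, had 291 and 188 CPM with shBAP1, against 353 and 218 CPM. In the 4 members with 9000 or more exon bases (MKI67, CENPF, ASPM and CENPE) replicate 1 exceeded replicate 2 by a median of 0.49 (random) and 0.41 (shBAP1) on the log2 scale, against -0.06 and 0.03 in the 31 shorter ones. MKI67 did not pass (-0.25 ± 0.20, adjusted p = 0.34), but was called lower without random-shRNA replicate 2 (-0.51) or without shBAP1 replicate 1 (-0.60). Summed fibroblast markers, mostly COL1A1, moved with the hairpin, at 5034 and 4357 CPM with shBAP1 against 6764 and 6151 CPM, with 5 of 7 tested lower and 1 higher and COL1A2 at or near 0. The part of that difference in the mitotic genes was not tested.

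**Figure D2:**
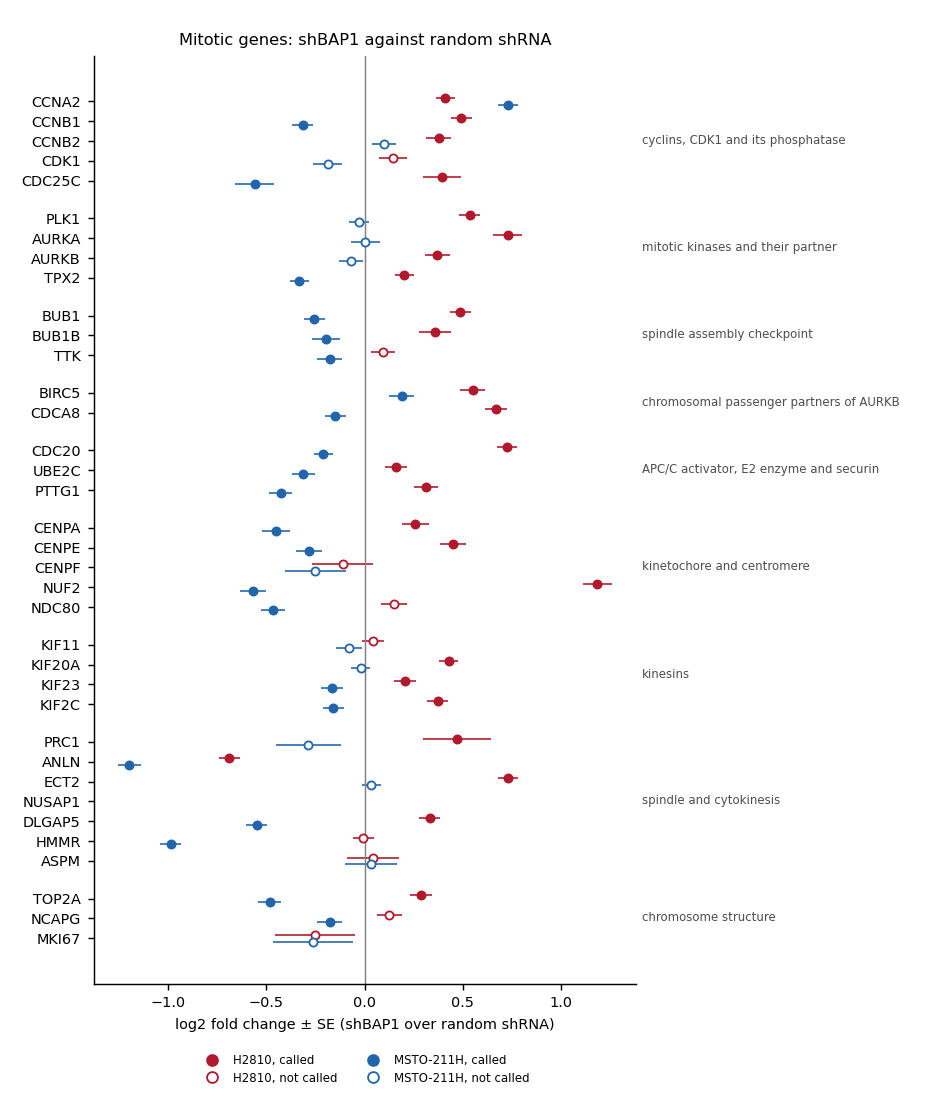
Log2 fold change of shBAP1 over random shRNA for each of the 35 tested genes, ± SE, in H2810 (red) and MSTO-211H (blue); filled points passed an adjusted p of 0.05 and open points did not. Most red points lie above 0 and most blue points below it, ANLN is below 0 and CCNA2 above 0 in both lines.

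In MSTO-211H the same knockdown went with lower RNA of most mitotic genes. Of 35 genes tested, 2 rose and 21 fell (23 called), where 21.7% of the 15872 genes tested rose, 24.5% fell and 46.2% were called in all. The median log2 fold change was -0.21, against -0.02 over all genes tested. The 21 falls reached from -1.196 (ANLN) to -0.15 with a median of -0.31. The size of the count depended on the scaling, since 15 of the 35 genes fell with DESeq2's size factors in edgeR.

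The 2 rises were CCNA2 and BIRC5. CCNA2 had 119.9 and 119 CPM in shBAP1 MSTO-211H libraries, against 72.3 and 71.9 CPM with random shRNA, 1.66-fold higher (0.73 ± 0.050, adjusted p = 6.91e-07). Both knockdown libraries were above both controls. BIRC5 had 122 and 126 CPM against 106 and 113 CPM, a small rise (0.19 ± 0.062, adjusted p = 0.0284) that was lost without shBAP1 replicate 1 (adjusted p = 0.0706), shBAP1 replicate 2 (0.164) or random replicate 1 (0.197). CCNB1 fell, with 174 and 181 CPM against 215 and 228 CPM (-0.31 ± 0.055, adjusted p = 0.000661), and CDC25C fell further (-0.56 ± 0.10). CCNB2 was at 54.9 and 55.4 CPM against 52.2 and 50.9 CPM and did not pass (0.10 ± 0.060, adjusted p = 0.214), nor did CDK1 (-0.19 ± 0.074). Within this group, then, 1 gene rose, 2 fell and 2 did not pass.

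Of the kinases and their partner, TPX2 alone fell, with 208 and 212 CPM with shBAP1 against 259 and 269.7 CPM (-0.33 ± 0.049, adjusted p = 0.000216). AURKA, 1.66-fold higher in shBAP1 H2810 cells, was at 74.5 and 78.6 CPM against 72.1 and 80.7 CPM here, and the libraries overlapped (0.0033 ± 0.073). PLK1 (-0.030 ± 0.052) and AURKB (-0.069 ± 0.060) did not pass either. All 3 checkpoint genes fell, from BUB1 at 78.2 and 83.0 CPM against 96.7 and 95.9 CPM (-0.26 ± 0.054, adjusted p = 0.00241) to TTK at 41.4 and 39.2 CPM against 44.9 and 46.2 CPM (-0.18 ± 0.064, adjusted p = 0.0409), with BUB1B between them (-0.20 ± 0.072). CDCA8 fell by the least of all called genes, with 52.4 and 53.7 CPM against 56.9 and 60.7 CPM (-0.15 ± 0.054, adjusted p = 0.0443).

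The genes of APC/C activity all fell. PTTG1 had 59.5 and 62.5 CPM with shBAP1, against 83.7 and 80.3 CPM with random shRNA (-0.43 ± 0.058, adjusted p = 0.000122), with both knockdown libraries below both controls. UBE2C fell too (-0.31 ± 0.059). CDC20 had 152 and 158 CPM against 179.6 and 179 CPM (-0.21 ± 0.048, adjusted p = 0.0038), and did not pass without shBAP1 replicate 1 (-0.18, adjusted p = 0.062). At the kinetochore 4 of 5 genes fell. NUF2, the largest rise in H2810, had 24.6 and 25.4 CPM with shBAP1 in MSTO-211H, against 36.5 and 37.7 CPM, 1.48-fold lower (-0.57 ± 0.066, adjusted p = 3.81e-05). Its partner NDC80 fell with it here (41.3 and 44.8 CPM against 59.1 and 59.7 CPM, -0.46 ± 0.061, adjusted p = 9.1e-05), as did CENPA (-0.45 ± 0.070) and CENPE (-0.28 ± 0.066). CENPE did not pass without random-shRNA replicate 2 (-0.21, adjusted p = 0.0589), and CENPF did not pass at 161 and 167 CPM against 193 and 198 CPM (-0.25 ± 0.16).

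The largest falls were in spindle and cytokinesis genes. ANLN had 63.8 and 59.0 CPM in shBAP1 libraries, against 143 and 138 CPM with random shRNA, 2.29-fold lower (-1.196 ± 0.057, adjusted p = 4.88e-08). HMMR, which did not pass in H2810, was 1.98-fold lower here, with 45.1 and 46.0 CPM against 87.0 and 93.6 CPM (-0.99 ± 0.054, adjusted p = 1.29e-07). DLGAP5 fell as well (-0.55 ± 0.055), while ECT2 (0.035 ± 0.048), PRC1 (-0.29 ± 0.17) and ASPM, the spindle pole protein at 149.7 and 145 CPM against 149 and 139 CPM (0.033 ± 0.13), did not pass. Kinesins moved little: KIF23 had 96.3 and 103 CPM against 109 and 115 CPM (-0.17 ± 0.054, adjusted p = 0.0268), KIF2C fell (-0.16 ± 0.055), KIF11 did not pass (-0.081 ± 0.065), and KIF20A was at 113 and 109 CPM against 114 and 112 CPM (-0.021 ± 0.050). TOP2A had 355 and 369 CPM against 502 and 509.9 CPM (-0.48 ± 0.058, adjusted p = 4.86e-05). NCAPG had 57.3 and 57.3 CPM against 60.5 and 69.1 CPM (-0.18 ± 0.064, adjusted p = 0.0401). MKI67 did not pass at 231 and 233 CPM against 278 and 279 CPM (-0.26 ± 0.20), though these did not overlap. Its SE and that of CENPF rest on a spread shared by all 4 knockdown groups. In the 4 members with 9000 or more exon bases, replicates differed by a median of 0.49 (random) and 0.41 (shBAP1) in H2810. In MSTO-211H these medians were -0.02 and -0.03, so not passing here does not show an absence of change.

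In this line 14 of the 23 calls held in each of 15 alternatives, among them CCNA2, CCNB1, ANLN, HMMR, NUF2, NDC80, TOP2A, PTTG1 and UBE2C. The 6 genes BUB1B, TTK, CDCA8, KIF23, KIF2C and NCAPG lost their calls with DESeq2's size factors, with DESeq2 and without shBAP1 replicate 1 or random replicate 2, with adjusted p between 0.0777 and 0.146 by edgeR under that scaling. Without shBAP1 replicate 1 it lay between 0.0734 (TTK) and 0.243 (KIF23), and without random replicate 2 between 0.0595 (BUB1B) and 0.371 (NCAPG). CDK1, not called here, was called lower without random replicate 1 (-0.28, adjusted p = 0.0198). Summed fibroblast markers also fell with the hairpin here, at 99.99 and 96.3 CPM with shBAP1 against 200.1 and 182 CPM, with 5 of 7 tested lower. Their part in the falls of the mitotic genes was not tested.

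**Figure D3:**
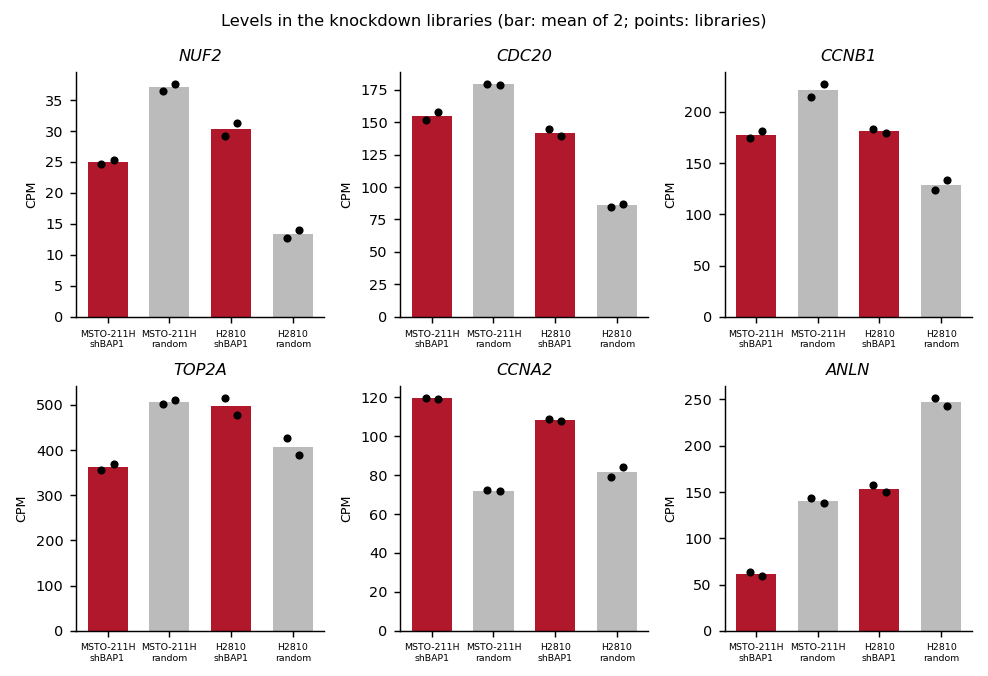
Levels in CPM of NUF2, CDC20, CCNB1, TOP2A, CCNA2 and ANLN in the 4 knockdown groups; bars are means of 2 libraries and points are the libraries. NUF2 was lower with shBAP1 in MSTO-211H and higher in H2810, CCNA2 was higher with shBAP1 in both lines and ANLN lower in both.

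The response to shBAP1 differed between the lines for most of the genes, by the test of the difference itself (MSTO-211H response minus H2810 response). It was lower in MSTO-211H for 30 genes and higher for 1 (31 of 35 called), where 16.5% of all genes tested were lower, 11.2% higher and 27.7% called in all. The 30 differences ran from -1.75 to -0.27 with a median of -0.65. NUF2 differed most (-1.75 ± 0.10, adjusted p = 6.53e-07), followed by HMMR (-0.98 ± 0.077), CDC25C (-0.95 ± 0.14), CDC20 (-0.93 ± 0.068), DLGAP5 (-0.88 ± 0.077), CDCA8 (-0.82 ± 0.077) and CCNB1 (-0.81 ± 0.078, adjusted p = 2.45e-05). ANLN fell in both lines and fell further in MSTO-211H (-0.51 ± 0.078, adjusted p = 0.000661). CCNA2, which rose in both, rose further in MSTO-211H (0.32 ± 0.070, adjusted p = 0.00628), a difference that did not pass without the filter on low counts (adjusted p = 0.0537 by edgeR). Of the 31 differences 24 held in each of 14 alternatives. BIRC5 (0.0559), CCNB2 (0.066), CDK1 (0.142), NCAPG (0.106), PRC1 (0.0534) and TTK (0.121) did not pass without random-shRNA replicate 2 of MSTO-211H, by adjusted p of edgeR. CENPF, KIF11, ASPM and MKI67 did not differ past the threshold, with SE of 0.22, 0.086, 0.19 and 0.29.

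Counted gene by gene, 16 genes rose in H2810 and fell in MSTO-211H, which is 76.2% of the 21 that fell in MSTO-211H and 64.0% of the 25 that rose in H2810. They were BUB1, BUB1B, CCNB1, CDC20, CDC25C, CDCA8, CENPA, CENPE, DLGAP5, KIF23, KIF2C, NUF2, PTTG1, TOP2A, TPX2 and UBE2C. Over all 15872 genes tested, 399 rose in H2810 and fell in MSTO-211H, 10.3% of those that fell in MSTO-211H and 11.2% of those that rose in H2810. Because most mitotic genes tested rose in H2810 (25) and most fell in MSTO-211H (21), a large overlap follows from these counts alone. Whether single genes were opposed beyond that was not tested. Of the 16, BUB1B, CDCA8, KIF23 and KIF2C lost their call in MSTO-211H with DESeq2's size factors. No library is shared by these 2 comparisons. CCNA2 and BIRC5 rose in both lines and ANLN fell in both.

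GSK126 in H2810 went with lower RNA of a set of mitotic genes and higher RNA of CCNA2 and CDK1. Of 35 genes tested, 16 fell and 2 rose (18 called), where 12.9% of the 15999 genes tested fell, 16.3% rose and 29.3% were called in all. The median log2 fold change was -0.11, against 0.0 over all genes tested. The 16 falls ran from -0.40 to -0.14 with a median of -0.28, none reaching 1.5-fold. EZH2, the drug's target, had 38.6 and 39.3 CPM with GSK126, against 33.5 and 32.8 CPM with DMSO (0.23 ± 0.056, adjusted p = 0.00315), which says nothing of its enzyme activity.

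The cyclins split by type in H2810. CCNB2 fell most of all, with 34.7 and 35.2 CPM with GSK126, against 46.1 and 45.8 CPM with DMSO, 1.32-fold lower (-0.40 ± 0.053, adjusted p = 9.43e-06). CCNB1 had 129.8 and 124 CPM against 155 and 149 CPM (-0.26 ± 0.040, adjusted p = 5.19e-05), and in both genes every treated library was below every control. CCNA2 rose, with 86.9 and 85.8 CPM against 77.9 and 75.4 CPM (0.17 ± 0.044, adjusted p = 0.00507), and so did CDK1, with 94.7 and 91.4 CPM against 83.9 and 77.8 CPM (0.20 ± 0.046, adjusted p = 0.00218). Both rises were at the edge of the threshold when a library was left out, without DMSO replicate 2 (adjusted p = 0.0526 for CCNA2 and 0.05 for CDK1) or, for CCNA2, without GSK126 replicate 1 (0.0514). CDC25C was at 13.3 and 10.7 CPM against 12.7 and 13.1 CPM and did not pass (-0.11 ± 0.10).

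PLK1 and AURKA fell alike among the kinases. PLK1 had 73.7 and 76.2 CPM with GSK126, against 95.3 and 92.6 CPM with DMSO (-0.33 ± 0.047, adjusted p = 2.38e-05), and AURKA had 67.1 and 62.9 CPM against 81.7 and 81.1 CPM (-0.32 ± 0.045, adjusted p = 1.57e-05). TPX2 fell by less (-0.20 ± 0.036), and AURKB did not pass, at 38.1 and 34.5 CPM against 34.998 and 37.7 CPM. Among checkpoint and passenger genes the falls were small: TTK had 58.3 and 57.3 CPM against 65.8 and 63.1 CPM (-0.16 ± 0.050, adjusted p = 0.0236) and BIRC5 80.6 and 82.1 CPM against 90.5 and 88.9 CPM (-0.14 ± 0.042, adjusted p = 0.015). Both lost their calls with DESeq2 (adjusted p = 0.113 and 0.0867) and when DMSO replicate 1 or either GSK126 replicate was left out. BUB1 (-0.084 ± 0.043), BUB1B at 18.4 and 19.7 CPM against 20.4 and 19.1 CPM, and CDCA8 at 47.0 and 46.1 CPM against 48.6 and 50.9 CPM did not pass.

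CDC20 and PTTG1 fell and UBE2C did not. CDC20 had 91.3 and 94.0 CPM with GSK126, against 119 and 118 CPM with DMSO (-0.35 ± 0.043, adjusted p = 3.31e-06), and PTTG1 fell nearly as far (-0.29 ± 0.047), while UBE2C did not pass at 54.2 and 56.4 CPM against 54.8 and 59.0 CPM. CENPE was the kinetochore gene that fell most, with 55.7 and 58.1 CPM against 70.6 and 73.2 CPM (-0.34 ± 0.049, adjusted p = 2.43e-05). NUF2 fell (-0.24 ± 0.062), a call lost with DESeq2 (adjusted p = 0.0569) and without GSK126 replicate 2 (0.0906), and NDC80 did not pass at 34.0 and 30.8 CPM against 34.1 and 32.7 CPM. KIF20A had 107 and 108 CPM against 135 and 139 CPM (-0.35 ± 0.042, adjusted p = 2.66e-06), and KIF23 did not pass at 70.6 and 67.6 CPM against 69.7 and 70.4 CPM. ECT2 had the smallest adjusted p of all 35 genes, with 120.1 and 119 CPM with GSK126, against 156 and 151 CPM with DMSO (-0.36 ± 0.038, adjusted p = 4.82e-07). DLGAP5 fell (-0.26 ± 0.044), as did KIF2C (-0.17 ± 0.048) and ASPM (-0.19 ± 0.050). The call of KIF2C was lost with DESeq2 (adjusted p = 0.06) and without DMSO replicate 1 (0.0801) or GSK126 replicate 2 (0.102), and that of ASPM without DMSO replicate 2 (adjusted p = 0.176) or GSK126 replicate 2 (0.0621).

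None of the chromosome structure genes moved past the threshold in H2810: NCAPG had 52.2 and 54.2 CPM with GSK126, against 52.1 and 48.8 CPM, TOP2A 488 and 494 CPM against 489 and 511 CPM, and MKI67 199 and 214 CPM against 178 and 216 CPM. HMMR did not pass either, at 62.7 and 61.8 CPM against 63.5 and 63.6 CPM. Without DMSO replicate 2, MKI67 was called higher (0.21, adjusted p = 0.00926 by edgeR), and without DMSO replicate 1 CENPF was called lower (-0.29, adjusted p = 0.00029). Both are among the 4 members with the longest exons, in which replicate 1 lay below replicate 2 in the DMSO pair by a median of -0.22 on the log2 scale. Of the 18 calls, 11 held in each of 15 alternatives: AURKA, CCNB1, CCNB2, CDC20, CENPE, DLGAP5, ECT2, KIF20A, PLK1, PTTG1 and TPX2. Of the 16 genes that fell, 14 had risen with shBAP1 in the same line (87.5% of the 16, and 56.0% of the 25 that rose with shBAP1). Over the 14978 genes tested in both tables, these shares were 31.4% of the genes that fell with GSK126 and 18.3% of those that rose with shBAP1. Because 25 of the mitotic genes had risen with shBAP1, a high share among the 16 follows largely from that count. Whether the 2 responses were linked gene by gene was not tested. CCNA2 rose with both. Summed fibroblast markers were 5821 and 6038 CPM with GSK126, against 6083 and 6932 CPM with DMSO (4 of 6 tested higher and 2 lower), and their part in these changes was not tested. These 2 comparisons share no library, and they come from tables scaled separately.

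**Figure D4:**
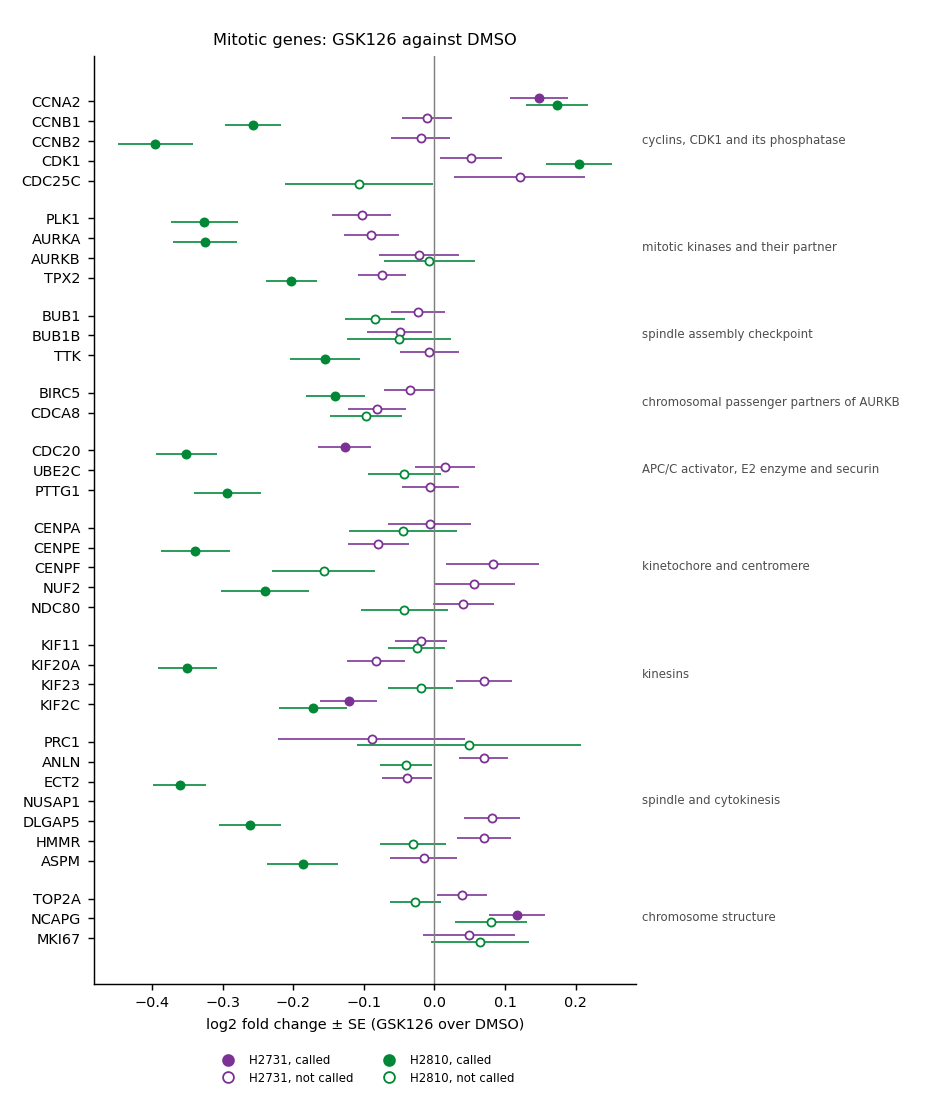
Log2 fold change of GSK126 over DMSO for each of the 35 tested genes, ± SE, in H2731 (purple) and H2810 (green); filled points passed an adjusted p of 0.05. The green points reach down to -0.40 (CCNB2), while the purple points lie between -0.13 and 0.15.

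In H2731 few of the mitotic genes passed the test with GSK126. Of 35 genes tested, 2 rose and 2 fell (4 called), where 13.8% of all genes tested rose, 10.9% fell and 24.7% were called in all, and the median log2 fold change was -0.01. CCNA2 had 109.9 and 114 CPM with GSK126, against 99.8 and 102 CPM with DMSO (0.15 ± 0.041, adjusted p = 0.0112), and NCAPG had 159 and 159 CPM against 149 and 145 CPM (0.12 ± 0.039, adjusted p = 0.0359). CDC20 had 245 and 242 CPM against 275 and 258 CPM (-0.13 ± 0.038, adjusted p = 0.0177), and KIF2C had 129 and 133 CPM against 139.6 and 146 CPM (-0.12 ± 0.040, adjusted p = 0.0338). The changes in these 4 genes were below 1.2-fold. None of the 4 calls held in every alternative: with DESeq2 the adjusted p was 0.0862, 0.183, 0.103 and 0.198, and without GSK126 replicate 2 the edgeR value was 0.13, 0.151, 0.116 and 0.0584. The other 31 genes lay between -0.10 and 0.12.

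Several genes that fell in H2810 did not pass in H2731. CCNB1 had 372 and 377 CPM with GSK126 in H2731, against 383 and 371 CPM with DMSO, and PLK1 139 and 138 CPM against 154 and 143 CPM (-0.10 ± 0.042). PLK1 was called lower there without DMSO replicate 2 (-0.16, adjusted p = 0.0177 by edgeR). PTTG1 had 125 and 125 CPM against 125 and 126 CPM, and TTK 125 and 131 CPM against 125 and 132 CPM. Treated and control libraries overlapped for CCNB1, PTTG1 and TTK, and did not for PLK1. BUB1B (79.5 and 78.7 CPM against 80.3 and 83.5 CPM), BIRC5 (193 and 188 against 195 and 195 CPM), CDCA8 (102 and 106 against 110.5 and 109.6 CPM), AURKB (48.6 and 51.3 against 51.6 and 49.9 CPM) and TOP2A (798 and 842 against 789 and 807 CPM) did not pass either. The same was true of CENPF (294 and 335 CPM against 285 and 309 CPM), CENPA (37.9 and 38.7 against 39.1 and 37.8 CPM), KIF11 (155 and 156 against 158 and 157 CPM), PRC1 (4.93 and 5.88 against 5.83 and 5.67 CPM) and ASPM (179.7 and 187 against 179 and 192 CPM). Of the genes named from BUB1B on, only BIRC5 and ASPM had fallen in H2810, and the others did not pass there.

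The difference of the GSK126 responses (H2731 minus H2810) passed the test for 11 genes, all higher in H2731, and for none lower. Over all genes tested 8.08% were higher, 6.66% lower and 14.7% called in all. The 11 were CCNB2 (0.38 ± 0.067, adjusted p = 0.000555), DLGAP5 (0.34 ± 0.059), ECT2 (0.32 ± 0.052, adjusted p = 0.00018), NUF2 (0.30 ± 0.085), PTTG1 (0.29 ± 0.062), KIF20A (0.27 ± 0.059), CENPE (0.26 ± 0.065), CCNB1 (0.25 ± 0.053), AURKA (0.24 ± 0.060), CDC20 (0.22 ± 0.057) and PLK1 (0.22 ± 0.063). Of these, 6 held in each of 14 alternatives (CCNB1, CCNB2, DLGAP5, ECT2, KIF20A and PTTG1), and DESeq2 called 7. CENPE (adjusted p = 0.0816), CDC20 (0.0881) and PLK1 (0.129) did not pass without GSK126 replicate 1 of H2810, nor did AURKA (0.122) and NUF2 (0.126) without its replicate 2. For CCNA2, which rose in both lines, the difference was -0.025 ± 0.060. These differences use the same 8 libraries as the separate responses and are not further evidence for them.

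The lines also differed in level without drug or knockdown, and the libraries used here are the controls of the comparisons above. Under DMSO, 32 of 35 genes were higher in H2731 than in H2810 and none was lower, where 41.5% of all genes tested were higher, 40.7% lower and 82.2% called in all. The median log2 difference was 0.90, against 0.01 over all genes tested. BUB1B had 80.3 and 83.5 CPM in H2731, against 20.4 and 19.1 CPM in H2810, 4.14-fold higher (2.05 ± 0.058, adjusted p = 2.02e-17). NDC80 had 122 and 126 CPM in H2731, against 34.1 and 32.7 CPM in H2810, 3.72-fold higher. NCAPG and MKI67 followed at 1.55 and 1.53, then CCNB1 (383 and 371 CPM in H2731, against 155 and 149 CPM) and ANLN (701 and 734 CPM against 298 and 289 CPM) at 1.31 and 1.29. CDC20, CDCA8, BIRC5, KIF2C, UBE2C and CENPF were higher by 1.04 to 1.17. The exceptions were NUF2, at 37.3 and 40.2 CPM in H2731 against 35.9 and 36.2 CPM, KIF20A, at 136 and 135 CPM against 135 and 139 CPM, and CDC25C (0.19 ± 0.10). All 32 calls held in each of 15 alternatives.

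With random shRNA, 25 of 35 genes were higher in MSTO-211H than in H2810, and 7 were lower. Over all genes tested 39.0% were higher, 40.7% lower and 79.7% called in all, and the median over the 35 genes was 0.35, against -0.03 over all. NUF2 was higher by the most, with 36.5 and 37.7 CPM in MSTO-211H, against 12.7 and 14.0 CPM in H2810, 2.79-fold higher (1.48 ± 0.072, adjusted p = 3.36e-09). CDC20 (1.06 ± 0.049), BUB1B (0.97 ± 0.077), NDC80 (0.94 ± 0.063), BIRC5 (0.84 ± 0.064) and AURKB (0.80 ± 0.062) came next. KIF11 was lower by the most, with 35.9 and 36.8 CPM in MSTO-211H, against 101 and 95.1 CPM in H2810, 2.70-fold lower (-1.43 ± 0.061, adjusted p = 1.08e-09). ANLN had 143 and 138 CPM in MSTO-211H, against 252 and 243 CPM in H2810, 1.76-fold lower (-0.82 ± 0.054, adjusted p = 5.64e-08). ASPM, TTK, CDK1, CCNA2 and UBE2C were lower by -0.38 to -0.16 on the log2 scale. Without random-shRNA replicate 2 of H2810, CDK1 (adjusted p = 0.111), CCNA2 (0.154) and UBE2C (0.251) did not pass. KIF20A (adjusted p = 0.0546) and PRC1 (0.0595), higher in MSTO-211H, did not pass without replicate 1 of that line, nor did KIF2C (0.0581), NCAPG (0.0661) and ASPM (0.13) without replicate 2. CENPE (80.9 and 89.8 CPM against 79.9 and 73.6 CPM), CENPF and MKI67 did not differ past the threshold.

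NUF2 was thus at 36.5 and 37.7 CPM in control MSTO-211H cells and 12.7 and 14.0 CPM in control H2810 cells, and at 24.6 and 25.4 CPM in MSTO-211H and 29.2 and 31.3 CPM in H2810 after BAP1 knockdown. These pairs share their control libraries, so no relation between the baseline difference and the response was tested. In the drug table, which was scaled separately, NUF2 was at 35.9 and 36.2 CPM in H2810 under DMSO, above its level in H2810 with random shRNA. The control libraries of H2810 also differed between the tables in the mesothelial marker CALB2, with 170 and 177 CPM under DMSO and 18.9 and 21.2 CPM with random shRNA, and no test was made across tables.

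**Figure D5:**
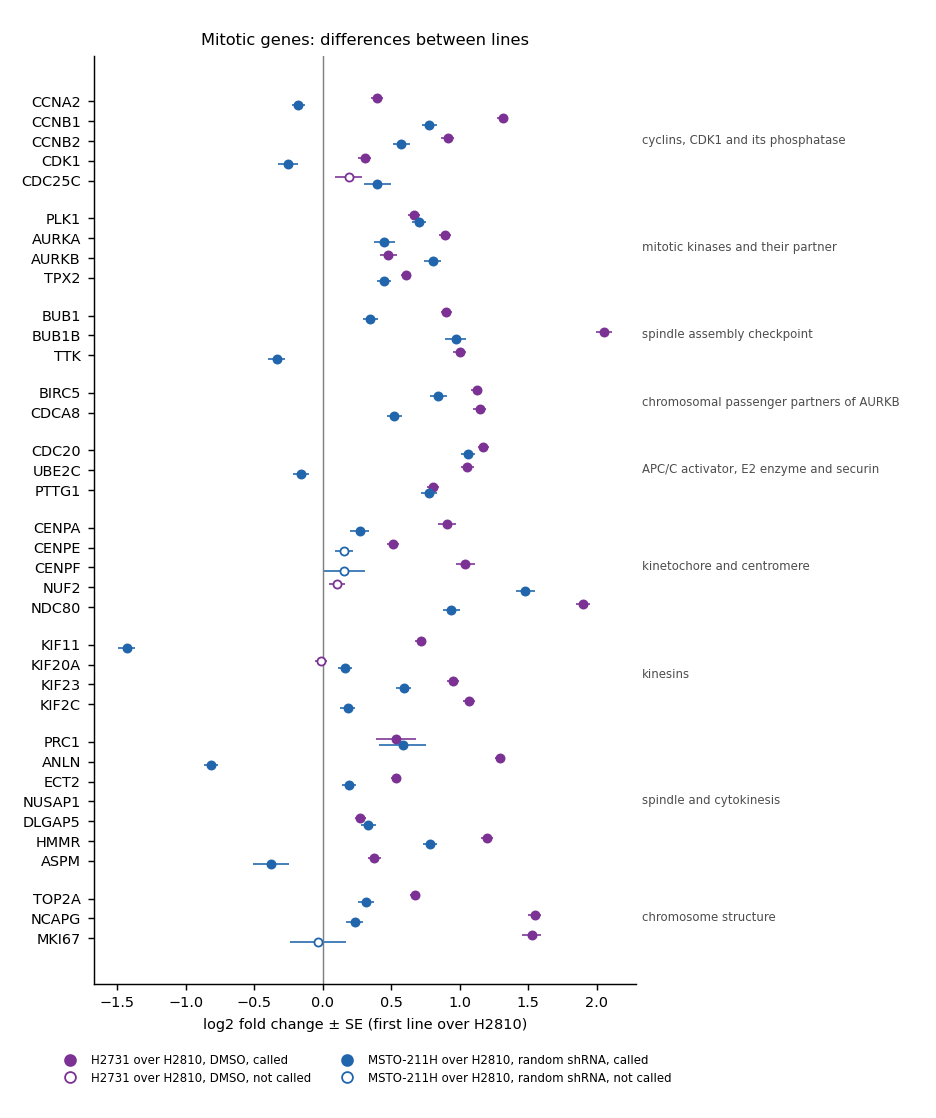
Log2 difference in level between lines for the 35 tested genes, ± SE: H2731 over H2810 under DMSO, and MSTO-211H over H2810 with random shRNA. BUB1B and NDC80 were highest in H2731 at 2.05 and 1.90, and KIF11 was lowest in MSTO-211H at -1.43.

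In the mouse cells none of the 36 genes was called between BNC and NC by edgeR's quasi-likelihood test, and none of the 12225 genes tested was (0.0% higher, 0.0% lower and 0.0% in all). At an unadjusted p below 0.05 there were 2 of the 36, PTTG1 and KIF20A, against 6.73% of all genes. DESeq2 called 1 of the 36, PTTG1, against 2.47% of all genes, and limma-voom called 0 (0.0% of all genes). The square root of the common dispersion, a measure of the spread between libraries, was 0.539 in the mouse table, against 0.0311 in the drug table and 0.0533 in the knockdown table. The median log2 fold change over the 36 genes was 0.09, against 0.03 over all genes.

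Pttg1 had 3.24, 3.39 and 3.29 CPM in BNC libraries, against 10.4 and 15.6 CPM in NC libraries, 3.91-fold lower with all BNC libraries below both NC libraries (-1.97 ± 0.35). Its adjusted p was 0.497 with edgeR and 9.32e-05 with DESeq2. Kif20a had 464, 466 and 406 CPM in BNC libraries, against 335 and 273 CPM in NC libraries, again with no overlap (0.55 ± 0.19, adjusted p = 0.68 with edgeR). Without BNC replicate 6, the library that stood apart, the values were -1.97 for Pttg1 and 0.61 for Kif20a, with adjusted p of 0.109 and 0.149 by edgeR, and the median over the 36 genes was 0.029.

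Most of the other mouse genes overlapped between the groups. Tpx2 did not, with 349, 321 and 382 CPM in BNC libraries, against 302 and 276 CPM in NC libraries. Nor did Hmmr (217.5, 185 and 209 CPM against 167 and 166 CPM) or Kif2c (94.5, 92.7 and 135 CPM against 89.9 and 90.9 CPM). The share of all genes without overlap was not counted, so these separations are given as values only. Plk1 had 153, 159 and 197 CPM in BNC libraries, against 116 and 154 CPM in NC libraries, and Aurka 133, 129.7 and 117 CPM against 124 and 115 CPM. Bub1b had 209, 209 and 171 CPM against 168 and 149 CPM, Bub1 155, 148 and 98.7 CPM against 159 and 98.6 CPM, and Cdca8 82.7, 86.1 and 114 CPM against 71.1 and 88.1 CPM. Of these 5 genes, Bub1b alone did not overlap between the groups, with 171 CPM in its lowest BNC library and 168 CPM in its highest NC library. Ccnb2 had 86.1, 83.8 and 141 CPM against 85.6 and 110.4 CPM, and Cdc25c 31.3, 31.0 and 41.1 CPM against 32.8 and 29.99 CPM. Cenpa had 55.9, 64.3 and 108 CPM against 88.8 and 84.3 CPM, Cenpf 302, 269.7 and 182 CPM against 303 and 181 CPM, and Kif11 236, 218 and 242 CPM against 301 and 201 CPM. Anln, which fell with knockdown in both human lines, had 427, 403 and 625 CPM in BNC libraries, against 412 and 555 CPM in NC libraries (0.0049 ± 0.28). BNC replicate 6 was highest for Ccnb2, Cenpa, Anln and Prc1 and among the lowest for Bub1 and Cenpf. Top2a had 873, 836 and 877 CPM against 1192 and 837 CPM, Mki67 1022, 890.0 and 922 CPM against 984 and 802 CPM, Aspm 252, 224 and 247 CPM against 232 and 143 CPM, Birc5 155, 157 and 136 CPM against 160.4 and 152 CPM, and Ube2c 128, 132 and 173 CPM against 131 and 135 CPM. In each of these last 5 genes the BNC and NC libraries overlapped.

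Genes of neighbouring cell cycle steps, listed by role, gave other counts. Of 35 G1/S and replication genes, 26 rose and 4 fell with shBAP1 in MSTO-211H, where the mitotic genes mostly fell, and 30 rose and 4 fell in H2810. All knockdown counts of this kind below stand beside 21.7% of all genes higher and 24.5% lower in MSTO-211H, and 22.5% higher and 23.3% lower in H2810. Their median log2 fold change was 0.51 in each line, against -0.21 for the mitotic genes in MSTO-211H and 0.36 in H2810. The replication genes FEN1 (1.25 ± 0.071), CDC6 (0.99 ± 0.057) and MCM3 (0.90 ± 0.047) rose most clearly in MSTO-211H, and UHRF1 (1.18 ± 0.073), RFC2 (0.93 ± 0.055) and MCM2 (0.92 ± 0.053) in H2810. With GSK126 in H2810, 25 of 35 G1/S genes rose and none fell, where 16.3% of all genes rose and 12.9% fell, while 16 mitotic genes fell. The median of the G1/S genes was 0.32, and CCNE2 (cyclin E2, 1.12 ± 0.088), CDC6 (0.72 ± 0.045) and MCM4 (0.52 ± 0.040) were among those that rose. Other mitotic lists did not all move alike in H2810. The other kinetochore and centromere genes summed to a mean of 1280 CPM with GSK126, against 1247 CPM with DMSO. Mitotic entry regulators were at 994 against 965 CPM. Lower sums were those of the other kinesin (1766 against 1918 CPM), condensin (2165 against 2418 CPM) and APC/C lists (870 against 918 CPM). These sums were not tested. In H2731 1 G1/S gene rose and 8 fell, where 13.8% of all genes rose and 10.9% fell. The 8 became 4 without DMSO replicate 1, GSK126 replicate 1 or GSK126 replicate 2 of H2731 or without either GSK126 library of H2810, and 2 with DESeq2. CCNA2, the mitotic gene that rose in all 4 human comparisons with a hairpin or drug, is known to be expressed from S phase on.

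Of 22 other kinesin, spindle and cytokinesis genes, 3 rose and 13 fell with shBAP1 in MSTO-211H and 9 rose and 2 fell in H2810. CEP55 (-0.63 ± 0.060), ARHGAP11A (-0.67 ± 0.051) and NEK2 (-0.75 ± 0.073) were lower in MSTO-211H, and RACGAP1 (0.73 ± 0.051) and KPNA2 (0.51 ± 0.052) higher in H2810. Leaving out 1 library gave 1 to 3 higher and 10 to 13 lower in MSTO-211H, and the difference between lines passed as lower in MSTO-211H for 15 of the 22 and higher for 1. Of 39 other kinetochore and centromere genes, 21 rose and 2 fell in H2810, and 18 to 21 rose when 1 library was left out. In MSTO-211H 5 rose and 13 fell, but the falls numbered 3 without shBAP1 replicate 1, 5 without random replicate 2, 7 without random replicate 1 and 3 with DESeq2, so the excess of falls over rises did not hold in every alternative.

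Of 17 condensin, cohesin and separase genes, 6 rose and 6 fell in MSTO-211H and 8 rose and 1 fell in H2810, and the falls in MSTO-211H numbered 2 without shBAP1 replicate 2 and 4 without any other 1 library of that line. Of 17 APC/C subunits and partners, 8 rose and 2 fell in MSTO-211H and 8 rose and none fell in H2810. The rises in MSTO-211H numbered 5 without random replicate 2 or either shBAP1 library, and the falls 1 to 4 when 1 library was left out. Of 13 mitotic entry regulators, 4 rose and 3 fell in MSTO-211H, shares near those over all genes, with 2 rises without random replicate 2 or shBAP1 replicate 2, and 9 rose and 1 fell in H2810. The phosphatase gene CDC25A rose in both lines (1.197 ± 0.053 in MSTO-211H and 1.16 ± 0.056 in H2810).

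Of 19 E2F, DREAM and MMB factors, which regulate cell cycle genes, 8 rose and 7 fell with shBAP1 in MSTO-211H (42.1% and 36.8%) and 6 rose and 4 fell in H2810 (31.6% and 21.1%, near the shares over all genes). TFDP1, the E2F dimer partner, fell in both (-1.17 ± 0.054 in MSTO-211H and -1.05 ± 0.056 in H2810). FOXM1, a transcription factor of G2/M genes, had 147 and 149 CPM in shBAP1 H2810 libraries, against 99.7 and 97.9 CPM with random shRNA (0.58 ± 0.046, adjusted p = 2.33e-06). In MSTO-211H, where it was looked up after its value in H2810 had been seen, FOXM1 also rose, with 186 and 190.1 CPM with shBAP1 against 153 and 153 CPM with random shRNA (0.30 ± 0.045, adjusted p = 0.000247). Its RNA thus went the opposite way to that of the 21 mitotic genes that fell in that line, a count that depended on the scaling. FOXM1 is 1 of the 19 factors, of which 7 fell there, so it does not stand for the list. With GSK126 in H2810, 9 of the 19 factors rose and 3 fell, where 16.3% of all genes rose and 12.9% fell, with E2F1 (0.47 ± 0.058), E2F2 (0.61 ± 0.088) and E2F7 (0.85 ± 0.10) higher. The 3 falls numbered 0 without DMSO replicate 2 or either GSK126 library of H2810, 1 without either GSK126 library of H2731, and 0 with DESeq2. Among cell cycle inhibitors and G1 cyclins, CCND1 (cyclin D1) rose with shBAP1 in both lines (1.05 ± 0.057 in MSTO-211H and 0.78 ± 0.057 in H2810) and with GSK126 in H2810 (0.48 ± 0.038). Over that list 5 rose and 3 fell of 15 in MSTO-211H, 4 rose and 6 fell of 15 in H2810, and 2 rose and 4 fell of 14 with GSK126 in H2810. The 4 rises in H2810 numbered 2 without random replicate 1 or shBAP1 replicate 2 of that line. No gene of these lists was called in the mouse cells by edgeR, where no gene at all was.

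NUSAP1 and PRC1 could not be read well in the human tables. NUSAP1, a microtubule-bundling spindle protein, had 0 to 7 counts per human library, against 1349 to 2907 counts per mouse library, and it was the gene that failed the filter. In the annotation 86.83% of its exon bases lie in exons of other listed genes, 81.43% in AC087721.2, which had 0 counts. PRC1 has 61.85% of its exon bases in other genes' exons, 57.6% in AC068831.6, which had 510 counts over the libraries of the drug table and 597 over those of the knockdown table. PRC1 had 64 to 134 counts per library in the drug table and 65 to 104 in the knockdown table. The other human members had at most 33.71% and the mouse orthologs at most 29.3% of their exon bases shared. The part of this overlap in the low counts was not tested, and the direction of PRC1 rests on few counts. PTTG1 is known to have near-identical copies elsewhere in the genome, and the labels do not say how reads matching several copies were assigned, so its values are uncertain in every comparison.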

How the data were processed

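RNA of 21 libraries was measured by poly-A RNA-seq. The deposited values are raw counts per gene in 1 mouse and 2 human tables. Per the submitters' processing notes, TopHat2 2.0.12, HTSeq and DESeq2 were used with mm10/GRCm38 for mouse; the human build, the annotation and the strand setting are not given in the sources used here. Total counts per library ran from 13693927 to 23217215, and a line without a gene name in the knockdown table holds 0 counts.

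Each table was fitted by itself, all groups together, with edgeR 4.0.16 in R 4.3.3 (TMM scaling, default expression filter, quasi-likelihood F test). SE is the absolute log2 fold change over the square root of F. Genes were called at a Benjamini-Hochberg adjusted p below 0.05 over all genes tested, and the steps were tested on simulated data. CPM use TMM-adjusted library sizes, and RPKM use the union of annotated exons. Annotations were checked by gene ID: 60418 human IDs were found in GENCODE v44 and 40254 mouse IDs in vM21.

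Alternatives were DESeq2's size factors in edgeR, no filter, limma-voom (limma 3.58.1), DESeq2 1.42.0, a stricter filter (50 or more counts in 2 or more libraries), a fit of the compared groups only, the replicate number as a block, and leaving out each library. Residuals of same-numbered libraries correlated between -0.065 and 0.098 in the human tables and at 0.34 and -0.31 in the mouse table, near 0 or of both signs, and equal numbers were not treated as pairs. Per-library values are given for the members with the largest and smallest change of each role group, and for up to 3 called genes with the smallest p of each neighbouring list the change is given. The members, lists and tests were chosen with earlier results of these data known, so a direction found for a list is not independent evidence.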

Additional observations from a re-analysis of the deposited data

Results flagged for a closer look

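The response to shBAP1 differed between MSTO-211H and H2810, by edgeR's test of the difference itself, for 31 of 35 mitotic genes. Values are the MSTO-211H response minus the H2810 response on the log2 scale. The largest difference was that of the kinetochore gene NUF2 at -1.75. Spindle and cytokinesis genes gave HMMR at -0.98, DLGAP5 at -0.88, PRC1 at -0.76, ECT2 at -0.69 and ANLN at -0.51, and the phosphatase gene CDC25C gave -0.95. Among cyclins and CDK1 they were -0.81 for CCNB1, -0.33 for CDK1, -0.28 for CCNB2 and, with the opposite sign, 0.32 for CCNA2. Kinases and their partners gave -0.72 for AURKA, -0.56 for PLK1, -0.53 for TPX2, -0.44 for AURKB, -0.82 for CDCA8 and -0.36 for BIRC5. Checkpoint genes gave -0.74 for BUB1, -0.55 for BUB1B and -0.27 for TTK, and APC/C genes -0.93 for CDC20, -0.74 for PTTG1 and -0.47 for UBE2C. Centromere and kinetochore genes gave -0.73 for CENPE, -0.71 for CENPA and -0.61 for NDC80, and kinesins -0.53 for KIF2C, -0.45 for KIF20A and -0.37 for KIF23. TOP2A gave -0.77 and NCAPG -0.30.

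The response to GSK126 differed between H2731 and H2810 by the same test for 11 of 35 genes. Values are the H2731 response minus the H2810 response on the log2 scale, and all were above 0. They were 0.38 for CCNB2, 0.34 for DLGAP5, 0.32 for ECT2, 0.30 for NUF2, 0.29 for PTTG1 and 0.27 for KIF20A. The smaller ones were 0.26 for CENPE, 0.25 for CCNB1, 0.24 for AURKA and 0.22 each for CDC20 and PLK1. No group held the 4 samples needed to look for a single library far from its group.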

How the results depend on the processing

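No result changed direction past the threshold in any alternative run. In the mouse cells DESeq2 called 1 mitotic gene lower (Pttg1) and 302 genes in all, and the replicate block called 1 gene in all, where edgeR called 0. With GSK126 in H2731, DESeq2 called 0 of the mitotic genes higher and 0 lower, against 2 and 2, and 2123 genes in all, and no filter left 1 called lower. With GSK126 in H2810 DESeq2 called 2783 genes in all, and for the difference between lines 7 mitotic genes higher and 1401 genes in all. Without a filter, 2 mitotic genes were lower with shBAP1 in H2810 (ANLN and MKI67), and 0 were higher in the difference of the shBAP1 responses, where CCNA2 lost its call. The cause of these shifts was not tested.

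Leaving out 1 library at a time gave 1 to 2 mitotic genes higher with GSK126 in H2810, and 0 to 2 higher and 0 to 2 lower in H2731, with 2338 (without GSK126 replicate 2 of H2731) to 4280 genes called in all there, and 2619 without DMSO replicate 1. The difference of the GSK126 responses had 0 to 1 lower (1 without DMSO replicate 1 of H2810, CDK1). With shBAP1, 1 to 2 genes were lower in H2810 and 1 to 2 higher in MSTO-211H. The counts that carried the descriptions were 23 to 26 higher with shBAP1 in H2810, 14 to 22 lower in MSTO-211H and 11 to 16 lower with GSK126 in H2810. Between control lines 4 to 7 were lower in MSTO-211H than in H2810, 4 without random-shRNA replicate 2 of H2810.

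The replicate block, whose numbers were not taken to pair libraries, gave 24 higher and 1 lower with shBAP1 in H2810, 2 higher and 22 lower in MSTO-211H, and 2 higher and 17 lower with GSK126 in H2810. With 2 libraries per human group, genes of few counts such as PRC1 and of long exons such as MKI67 had the widest errors.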
